A study of Mus musculus with 24 samples.

Results

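The comparison described here asked what Anakinra changed in the transcriptome of the injured brain when it was given on top of PLX3397. It used 10 of the 24 libraries of the series, 5 of mice treated with PLX3397+Anakinra and 5 of mice treated with PLX3397, and these were all the libraries that the labels assign to either treatment. All 10 mice were males of the strain labelled C57BL6N (the methods name C57BL/6JRj), aged 12 to 16 weeks by the labels, and had undergone controlled cortical impact, a model of traumatic brain injury (TBI). PLX3397 was given in the food at 290 mg/kg of pellets from 90 min after TBI until tissue collection at 5 dpi, and both groups received it. The combination group also received Anakinra at 100 mg/kg subcutaneously 5 min, 24 h, 48 h and 72 h after TBI, whereas the methods describe saline injections for mice without Anakinra. No library was dropped, pooled or found to duplicate another, and each library came from 1 mouse. Mice with TBI on vehicle (n = 5) or on Anakinra alone (n = 5) served to compare the addition of Anakinra with and without PLX3397, and 4 sham mice give the level without TBI. The labels call the tissue cortex, but it was lesional and perilesional brain, and Drd2, the D2 dopamine receptor of striatal neurons, was measured at 41.6 to 79.4 TPM in the 10 libraries, so a striatal marker was present in each.

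PLX3397 inhibits the kinase of the colony stimulating factor 1 receptor (CSF1R), on which microglia and many tissue macrophages depend for survival and proliferation. Anakinra is a recombinant form of the interleukin-1 receptor antagonist, which occupies the receptor IL1R1 and keeps IL-1α and IL-1β from signaling through MyD88 and NF-κB. After TBI, microglia, macrophages from the brain's borders and blood-derived monocytes and neutrophils gather at the lesion, take up debris and lipid, and express interferon-stimulated genes. The drugs therefore act at different points of the same innate response, one on the number and state of CSF1R-dependent cells and the other on a cytokine signal that many cell types receive.

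Expression was given as TPM, a share of each library that is scaled by gene length. The test, limma on log2(TPM + 1), covered 17267 genes whose TPM averaged 0.5 or more across all 24 libraries, and this scale understates the change of low genes. Single genes are given with p-values adjusted over all of these genes, and an unadjusted p of 0.05 is used for counts. In bulk tissue, fewer cells of a type and less RNA per cell cannot be told apart.

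PLX3397 mouse J01 stood apart from the other mice of its group in Avp. Avp and Pmch were both chosen after their values were seen, and Pmch did not set J01 apart. Avp, the hypothalamic hormone vasopressin, was at 41.7 TPM in J01 and at 1.8 to 6.67 TPM in the other 4 mice on PLX3397, and at 0.404 to 3.28 TPM with the combination. Pmch, the melanin-concentrating hormone of the lateral hypothalamus, was at 75.7, 0.736, 23.5, 72 and 1.83 TPM with PLX3397 and at 0.496, 14.9, 2.39, 81.6 and 50.6 TPM with the combination, so it varied as widely within both groups. The summed level of 18 collagen genes was 632 TPM in J01 and 835 to 1380 TPM in the other mice on PLX3397. Over all genes tested, the root mean square deviation from the group mean was 0.178 (log2) in J01 and 0.144 to 0.169 in the other 9 libraries. The part of these differences in the results was not tested, and counts without J01 are given for several lists.

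At an adjusted p of 0.05, 9 of 17267 genes (0.0521%) were called, and all of them fell when Anakinra was added: Wfdc17, F13a1, Pf4, F7, Lyz2, Arg1, Mmp8, Apoc2 and Gpnmb. No gene rose at adjusted p (0 of 17267, 0%), and the smallest adjusted p among the genes with a higher level was 0.132. With all 24 libraries in the fit, 25 genes were called lower and 1 higher. The higher one, looked up after the fit, was Mical2, which oxidizes actin, at 84.5 ± 3.17 TPM with PLX3397 and 96.3 ± 4.11 TPM in mice on the combination (adjusted p = 0.0445 in that fit and 0.194 in the 10 libraries). At an unadjusted p of 0.05, 620 genes (3.59%) were lower and 397 genes (2.30%) were higher in PLX3397+Anakinra, while the median log2 difference of all genes tested was 0.0066. The values of the groups did not overlap for 132 lower genes (0.764%) and 63 higher genes (0.365%).

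For the 4 called genes with the smallest p that are in the promoter table, the promoter (250 bases before to 50 after the start, RefSeq, GRCm38.p6, 5′ to 3′ on the gene's strand) is shown so that the regulatory sequence of the leading genes can be read beside their values. Wfdc17 lies at chr11:83703806-83704105 on the plus strand, F13a1 at chr13:37050195-37050494 on the minus strand, Pf4 at chr5:90772185-90772484 on the plus strand and F7 at chr8:13025784-13026083 on the plus strand. For F13a1, which has 2 promoters in the table, the upstream one is printed. Capitals mark matches to any of 4 motifs, searched on both strands: GAGGAAGT (PU.1, the master factor of myeloid cells), TTGCNNAA (C/EBP), TGANTCA (AP-1) and GAAANNGAA (the core of the interferon-stimulated response element).
Wfdc17: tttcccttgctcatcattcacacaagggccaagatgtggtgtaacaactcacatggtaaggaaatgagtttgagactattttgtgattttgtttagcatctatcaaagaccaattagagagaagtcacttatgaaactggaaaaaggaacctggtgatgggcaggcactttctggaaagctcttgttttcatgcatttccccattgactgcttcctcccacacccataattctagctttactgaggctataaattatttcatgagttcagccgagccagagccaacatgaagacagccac
F13a1: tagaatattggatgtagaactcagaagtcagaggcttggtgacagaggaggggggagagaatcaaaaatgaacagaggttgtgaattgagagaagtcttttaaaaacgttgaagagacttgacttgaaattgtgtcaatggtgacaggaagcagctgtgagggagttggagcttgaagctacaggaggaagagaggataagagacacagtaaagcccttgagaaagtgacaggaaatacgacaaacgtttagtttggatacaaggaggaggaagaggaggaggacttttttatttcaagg
Pf4: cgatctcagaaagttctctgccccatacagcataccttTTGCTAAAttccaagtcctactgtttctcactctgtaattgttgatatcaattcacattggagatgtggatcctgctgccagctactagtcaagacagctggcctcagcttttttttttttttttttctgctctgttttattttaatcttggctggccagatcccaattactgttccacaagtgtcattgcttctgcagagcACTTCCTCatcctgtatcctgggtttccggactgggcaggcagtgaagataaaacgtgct
F7: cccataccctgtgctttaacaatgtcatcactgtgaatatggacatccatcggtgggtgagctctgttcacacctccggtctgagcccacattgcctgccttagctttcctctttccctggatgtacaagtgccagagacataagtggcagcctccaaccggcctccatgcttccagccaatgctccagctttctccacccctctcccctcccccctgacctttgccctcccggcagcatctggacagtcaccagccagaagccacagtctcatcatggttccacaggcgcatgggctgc
In these windows only Pf4 held matches, a C/EBP match and, on the minus strand and overlapping neither it nor another motif, a PU.1 match that begins 10 bases before the start. Over all 32851 promoters of the table, 3.2% held the PU.1 motif, 10.8% the C/EBP motif, 7.81% the AP-1 motif and 8.56% the interferon-stimulated response element core. Of the 8 called genes with a promoter in the table, 3 held the PU.1 motif, 2 the C/EBP motif, 1 the AP-1 motif and 0 the response element core in at least 1 of their promoters. These counts are of genes, which can have more than 1 promoter, whereas the shares over the table are of single promoters. Arg1 was not matched.

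Wfdc17, a secreted WAP-domain protein of activated macrophages and microglia, was measured at 30, 55.2, 37.5, 39.5 and 48.8 TPM in the mice on PLX3397 alone. In the mice on PLX3397+Anakinra it was at 16.6, 18, 14.9, 15.6 and 12.8 TPM. The groups were apart by more than the whole range of the combination group, and the mean fell 2.71-fold, from 42.2 ± 9.89 to 15.6 ± 1.94 TPM (SD, n = 5 each), with a log2 difference of -1.36 ± 0.14 (SE, adjusted p = 0.00119). Pf4, the chemokine CXCL4 of platelets and of macrophages at the brain's borders, was at 20.1, 37.3, 27.1, 27.1 and 41.3 TPM with PLX3397 and at 11.6, 5.45, 7.48, 6.43 and 6.83 TPM with the combination. No combination mouse reached the lowest PLX3397 mouse, and the mean fell 4.05-fold (log2 difference -1.88 ± 0.19, adjusted p = 0.00119).

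F13a1, the catalytic A subunit of coagulation factor XIII that crosslinks fibrin and is made by macrophages, was at 8.21, 14.5, 13.3, 9.59 and 15.4 TPM with PLX3397. With the combination it was at 3.93, 2.64, 4.06, 3.62 and 3.61 TPM. The highest combination mouse was below the lowest PLX3397 mouse, and the mean fell 3.42-fold (log2 difference -1.50 ± 0.15, adjusted p = 0.00119). F7, coagulation factor VII, which starts the tissue factor pathway, was a low gene at 2.32, 3.21, 2.01, 2.38 and 3.63 TPM with PLX3397 and at 0.315, 0.56, 0.701, 0.665 and 0.731 TPM with the combination. Its groups did not overlap, and its mean fell 4.56-fold (log2 difference -1.21 ± 0.13, adjusted p = 0.00172). With Pf4, these were the 3 genes that passed adjusted p in a list of 30 coagulation and fibrinolysis genes. Of the 20 tested members of that list, 5 (25%, against 3.59% of all genes) were lower at unadjusted p. The count was 3 when PLX3397 mouse J02, J12 or J20 or combination mouse J10 or J17 was left out, and 7 without PLX3397 mouse J01. The list's median log2 difference was -0.04, against 0.0066 over all genes. Thbs1, thrombospondin 1, was 1 of the 5 lower members, at 30.7 ± 10.8 TPM with PLX3397 alone and 19.4 ± 5.10 TPM with the combination (adjusted p = 0.787).

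Lyz2, the lysozyme of myeloid cells, was the most abundant called gene. It was at 722, 1316, 976, 746 and 1112 TPM with PLX3397 and at 430, 370, 426, 336 and 327 TPM with the combination. All combination mice were lower than all PLX3397 mice, and the mean fell 2.58-fold, from 974 ± 251 to 378 ± 48.7 TPM (log2 difference -1.34 ± 0.15, adjusted p = 0.00172). Arg1, arginase 1, which splits arginine into ornithine and urea in alternatively activated macrophages, was at 9.61, 18.1, 14.6, 24.1 and 25.4 TPM with PLX3397. With the combination it was at 3.01, 4.6, 3.26, 5.3 and 3.98 TPM. The mean fell 4.56-fold (log2 difference -1.89 ± 0.22, adjusted p = 0.00208), with PLX3397 mouse J01 lowest in its group. Among the 22 tested genes of arginine and polyamine metabolism only Arg1 passed adjusted p, and 1 other gene was lower at unadjusted p: Sat1, the spermidine acetyltransferase, at 132 ± 19.4 against 115 ± 6.34 TPM (adjusted p = 0.845), a call that was lost when any one of 7 mice was left out.

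Mmp8, the collagenase first known from neutrophils, was at 1.62, 2.83, 2.61, 2.06 and 2.74 TPM with PLX3397 and at 0.957, 0.522, 0.84, 0.585 and 0.409 TPM with the combination. It fell 3.58-fold without overlap (log2 difference -1.02 ± 0.13, adjusted p = 0.00705). Apoc2, the cofactor of lipoprotein lipase, was at 10.4, 17.8, 15.9, 12.5 and 17.3 TPM with PLX3397 and at 4.71, 5.67, 9.8, 4.33 and 5.64 TPM with the combination. Combination mouse J09 stood apart from its group and came close to PLX3397 mouse J01, and the mean fell 2.45-fold (log2 difference -1.19 ± 0.18, adjusted p = 0.0401). Gpnmb, a transmembrane glycoprotein of lipid-laden phagocytes, was at 140, 230, 203, 136 and 175 TPM with PLX3397 and at 109, 97.5, 91.9, 84.6 and 66.6 TPM with the combination. It fell 1.97-fold (log2 difference -0.96 ± 0.15, adjusted p = 0.0404).

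**Figure D1:**
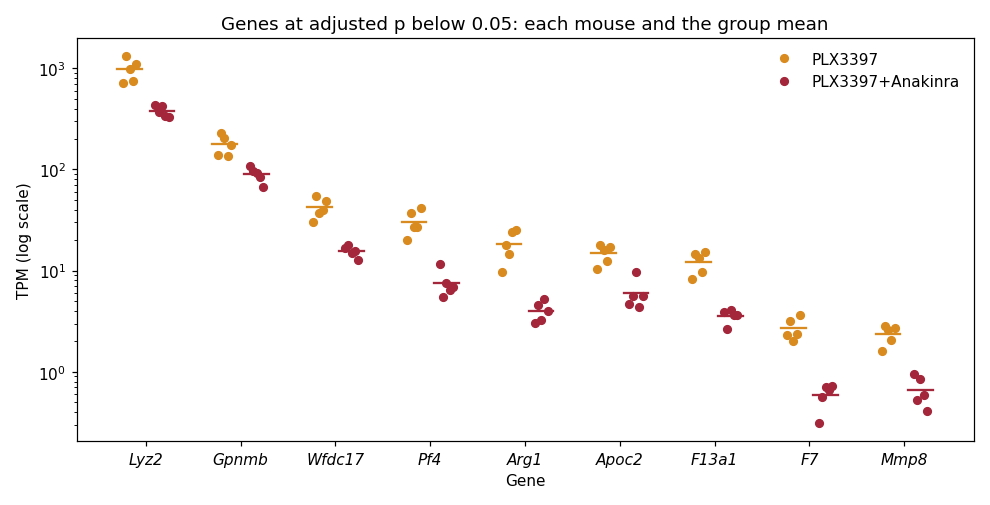
TPM on a log scale in each mouse (points) and the group means (lines) of the 9 genes that passed adjusted p, for PLX3397 (orange) and PLX3397+Anakinra (red), 5 mice each. For every gene shown the 5 combination mice lie below the 5 PLX3397 mice.

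The 9 genes were not called in every way of testing. Apoc2 and Gpnmb lost the call when any one of several mice was left out, and when libraries were rescaled by the median ratio. When all 28322 genes above 0 TPM were tested, none of the 9 passed, with a smallest adjusted p of 0.0583. In the other direction, 50 genes passed without PLX3397 mouse J01 and 18 passed without combination mouse J03, and all of these were lower in PLX3397+Anakinra. The 50 included each of the 9.

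By the study's own criteria for DEGs (unadjusted p below 0.05, a ratio of group means above 2 and a difference above 4 TPM), 16 genes (0.0927%) were lower and 1 gene (0.00579%) was higher in PLX3397+Anakinra. Beside 6 of the genes above, the lower ones were Spp1, Lilr4b, Clec4n, Fabp4, Ms4a7, Apoc1, Lcn2, Gal, Xlr3b and Gm13308, and the higher one was Gm5741. Spp1, osteopontin, was at 1546, 2911, 2082, 1594 and 2144 TPM with PLX3397 and at 1318, 1129, 802, 844 and 850 TPM with the combination. These values did not overlap, and the ratio of means was 2.08 (log2 difference -1.04 ± 0.17), but the adjusted p was 0.0514. Lilr4b, an immunoglobulin-like receptor of myeloid cells, had means of 11.6 ± 2.66 and 5.80 ± 1.12 TPM (adjusted p = 0.055), with an overlap of a single mouse on each side. Ms4a7, a membrane protein of macrophages, had means of 6.44 ± 2.28 and 2.11 ± 0.845 TPM without overlap (adjusted p = 0.0647).

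Other DEGs were carried by fewer mice. Lcn2, lipocalin 2, an iron-carrier protein of neutrophils and reactive astrocytes, was at 40.4, 57.3, 49.4, 66.4 and 60.8 TPM with PLX3397. With the combination it was at 16.7, 17.4, 54.8, 12.2 and 16 TPM. In the combination group 4 of 5 mice were below every PLX3397 mouse, and mouse J09 was within the PLX3397 range (adjusted p = 0.141). Gal, the neuropeptide galanin that injured neurons express, had means of 12.3 ± 2.81 and 5.81 ± 1.17 TPM (adjusted p = 0.0514). Gm5741 had means of 4.32 ± 1.46 TPM and, with Anakinra added, 9.51 ± 4.75 TPM, with overlapping groups (adjusted p = 0.667).

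Genes of the interleukin-1 system itself were in part lower, and none was called. Of 20 tested members of the IL-1 axis, 5 (25%, against 3.59% of all genes) were lower at unadjusted p, 0 were higher and none passed adjusted p, with a median log2 difference of -0.10. The count was 3 without PLX3397 mouse J19 or J20 or combination mouse J17. The ligands were low in both groups: Il1a was at 0.933 ± 0.252 and 0.674 ± 0.14 TPM (adjusted p = 0.877), and Il1b at 0.906 ± 0.402 and 0.57 ± 0.159 TPM (adjusted p = 0.873). Il1rn, the mouse gene for the natural antagonist that Anakinra copies, was at 1.27, 2.35, 2.19, 1.67 and 2.39 TPM with PLX3397 and at 1.71, 0.455, 0.732, 1.02 and 1.37 TPM with the combination. The groups overlapped, the ratio of means was 1.86, and the adjusted p was 0.48.

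Among receptors of the family, Il1r1, the target of Anakinra, was at 10.4 ± 2.03 TPM with PLX3397 alone and 9.62 ± 1.40 TPM with the combination (adjusted p = 0.959), a log2 difference of -0.09 with a 95% interval from -0.35 to 0.17. The coreceptor gene Il1rap (19.2 and 18.9 TPM, adjusted p = 0.99) and the decoy receptor gene Il1r2 (0.712 and 0.692 TPM, adjusted p = 0.992) had similar means, and Il1rl2, the IL-36 receptor gene, was at 1.91 and 1.68 TPM (adjusted p = 0.961). Sigirr, a negative regulator of the receptor family, was at 2.89 ± 0.516 against 2.17 ± 0.541 TPM (adjusted p = 0.78). Downstream of the receptors, Myd88, Irak1, Irak2, Irak3, Irak4 and Traf6 had log2 differences from -0.06 to 0.05 and none was below an unadjusted p of 0.05.

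The inflammasome adaptor gene Pycard (10.9 ± 2.24 against 8.05 ± 1.37 TPM, adjusted p = 0.549) and the protease gene Casp1 (5.13 ± 0.769 against 4.06 ± 0.814 TPM, adjusted p = 0.789) were lower at unadjusted p, while the sensor gene Nlrp3 was at 1.17 and 1.01 TPM (adjusted p = 0.936). Il18bp, the secreted inhibitor of IL-18, was at 10.4, 12.4, 10.7, 10.6 and 11.7 TPM with PLX3397 and at 9.67, 8.46, 9.84, 9.19 and 10.2 TPM with the combination. It was the only 1 of the 20 tested members whose groups did not overlap (0.764% of all genes were lower without overlap). The ratio of its means was 1.18 (adjusted p = 0.525). Il18 itself was at 27.1 and 27.4 TPM (adjusted p = 0.99) and Il33 at 138 and 124 TPM (adjusted p = 0.892). Of 20 tested genes that IL-1 and NF-κB are known to induce, 1 was lower at unadjusted p, which was Lcn2, and 4 without PLX3397 mouse J01. Their median log2 difference was -0.08. Ccl2 was at 10.1 ± 2.23 and 7.80 ± 2.15 TPM (adjusted p = 0.848), Tnfaip3 at 4.90 and 4.44 TPM (adjusted p = 0.888) and Icam1 at 11.6 and 10.2 TPM (adjusted p = 0.913).

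Of 9 genes for CSF1R and other receptor kinases that PLX3397 inhibits and their ligands, 1 was lower and 1 was higher at unadjusted p, with a median log2 difference of 0.00. Csf1r was at 75.3, 120, 73.8, 90.5 and 85.2 TPM with PLX3397 and at 83.8, 78.1, 71, 82.1 and 72.6 TPM with the combination. The groups overlapped (adjusted p = 0.892), whereas vehicle mice had a mean of 226 TPM. Its ligands were the 2 members below an unadjusted p of 0.05: Csf1 was at 48.6 ± 4.76 against 41.1 ± 3.55 TPM (adjusted p = 0.499) and Il34, the neuronal ligand, at 53.7 ± 4.47 against 58.8 ± 1.5 TPM (adjusted p = 0.757). Kit, Kitl, Flt3, Flt3l, Pdgfra and Pdgfrb had log2 differences from -0.09 to 0.15 with adjusted p from 0.889 to 0.998. Without PLX3397 mouse J12, 3 members were lower at unadjusted p.

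Of 24 tested homeostatic microglia genes, 6 (25%, against 3.59% of all genes) were lower at unadjusted p and 3 without combination mouse J17, with a median log2 difference of -0.08. P2ry12, the purinergic receptor that defines resting microglia, was at 18, 21.2, 12.2, 17.5 and 11.5 TPM with PLX3397 and at 20, 13.8, 11.4, 18.8 and 19.5 TPM with the combination. These ranges overlapped almost fully (adjusted p = 0.99), and Tmem119 (25.2 and 26.4 TPM, adjusted p = 0.962) and Cx3cr1 (52.4 and 49.1 TPM, adjusted p = 0.955) were as close. The members below an unadjusted p of 0.05 with the smallest p were C1qc, C1qb and C1qa, the chains of complement C1q, and Trem2, a lipid receptor, all of which macrophages also express. C1qa was at 520 ± 102 against 413 ± 47.3 TPM (adjusted p = 0.589), with PLX3397 mouse J02 at 696 TPM apart from its group. The summed level of the list was 2661 to 4117 TPM with PLX3397, 2396 to 3088 TPM with the combination and 4987 to 6968 TPM with vehicle.

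Of 31 tested genes of damage-associated phagocytes, 19 (61.3%, against 3.59% of all genes) were lower at unadjusted p and 0 were higher, with Lyz2 and Gpnmb past adjusted p. The median log2 difference was -0.30, and the count ranged from 16 to 24 when each mouse was left out in turn. The summed level was 13431, 19908, 15326, 14531 and 16537 TPM with PLX3397 and 13063, 13071, 11260, 10917 and 10258 TPM with the combination. No combination mouse reached the lowest PLX3397 mouse, J01, although J03 and J04 came close. Lgals3, galectin 3, was at 94.3 ± 20.1 against 55.3 ± 6.99 TPM without overlap (adjusted p = 0.0647). Fabp4, a fatty acid binding protein of macrophages and endothelium, was at 10.1 ± 2.42 against 4.59 ± 1.55 TPM (adjusted p = 0.0647), and Cd68 at 151 ± 27.9 against 118 ± 18.8 TPM (adjusted p = 0.577).

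Of 26 tested genes of border macrophages, 16 (61.5%, against 3.59% of all genes) were lower at unadjusted p and 0 were higher. Among the lower ones, Pf4, F13a1 and Wfdc17 passed adjusted p. The median log2 difference was -0.53, the lowest of all lists, and the count was 14 to 18 with each mouse left out. The summed level was 401 to 543 TPM with PLX3397, 336 to 383 TPM with the combination and 211 to 236 TPM in sham mice. The receptors most used to define these cells were not below an unadjusted p of 0.05. Mrc1 was at 0.649, 1.24, 0.898, 0.766 and 1.38 TPM with PLX3397 and at 1.12, 0.651, 0.388, 0.564 and 0.674 TPM with the combination (adjusted p = 0.875). Cd163 was at 0.305 ± 0.111 and 0.308 ± 0.122 TPM (adjusted p = 1) and Lyve1 at 0.223 ± 0.105 and 0.330 ± 0.212 TPM (adjusted p = 0.955). In both groups they were below their means in sham mice, of 2.37 TPM for Mrc1, 1.15 TPM for Cd163 and 0.951 TPM for Lyve1, whereas Pf4 had a sham mean of 3.66 TPM and F13a1 of 1.56 TPM.

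Of 24 tested genes for C-type lectin, Lilr and Cd300 receptors, 18 (75%, against 3.59% of all genes) were lower at unadjusted p and 0 were higher. None passed adjusted p, the median log2 difference was -0.47, and the count was 15 to 20 with each mouse left out. Clec4n, the fungal receptor Dectin-2, was at 4.58, 9.03, 6.66, 6.94 and 8.9 TPM with PLX3397 and at 4.27, 2.26, 1.99, 3.46 and 2.99 TPM with the combination. The groups were close but did not overlap, and the ratio of means was 2.41 (adjusted p = 0.055). Clec12a, an inhibitory lectin, was at 2.51 ± 0.291 against 1.53 ± 0.261 TPM (adjusted p = 0.132), and Pirb, an inhibitory receptor for MHC class I, at 5.05 ± 1.35 against 2.52 ± 0.677 TPM (adjusted p = 0.132), both without overlap.

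Of 18 tested monocyte markers, 6 (33.3%, against 3.59% of all genes) were lower at unadjusted p, or 9 without PLX3397 mouse J01. Arg1 passed adjusted p, and the median log2 difference was -0.22. Chil3, the chitinase-like protein Ym1, was at 1.64, 1.93, 2.12, 1.84 and 2.99 TPM with PLX3397 and at 0.642, 0.916, 0.714, 1.19 and 1.4 TPM with the combination, without overlap (adjusted p = 0.132). The defining receptor gene of monocytes, Ccr2, was at 0.800 ± 0.351 and 0.596 ± 0.198 TPM (adjusted p = 0.936). Of 20 neutrophil genes only 8 were tested, and Ly6g and Elane were listed at 0 in all 10 libraries. Mmp8 and Lcn2 were the 2 members (25%, against 3.59% of all genes) lower at unadjusted p, with 5 lower without PLX3397 mouse J01 and 4 without J12. The neutrophil alarmin S100a8 was at 18.9 ± 9.74 and 10.7 ± 4.30 TPM (adjusted p = 0.847). Of 28 genes of T, B and NK cells 8 were tested, with a median log2 difference of -0.05 and none at adjusted p. The 3 genes (37.5%, against 3.59% of all genes) lower at unadjusted p were Ccl5 (7.41 ± 2.93 against 4.23 ± 1.14 TPM), Il7r (1.28 against 0.7 TPM) and Cd28 (0.995 against 0.593 TPM). Trac, a T cell receptor gene, and Ighm were listed at 0.

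Many of the genes of lysosomal digestion and of complement were lower. Of 29 tested genes of lysosomal proteases and enzymes 16 (55.2%, against 3.59% of all genes) were lower at unadjusted p. That count was 10 without combination mouse J17 and 22 without PLX3397 mouse J01. Of the 29 genes, 28 had a negative log2 difference, and the median was -0.20. Ctss, cathepsin S of macrophages, was at 310, 504, 332, 447 and 420 TPM with PLX3397 and at 310, 292, 234, 257 and 233 TPM with the combination. Mouse J03 of the combination and mouse J01 of PLX3397 had the same rounded level, and the ratio of means was 1.52 (adjusted p = 0.141). Acp5, the tartrate-resistant acid phosphatase of macrophages and osteoclasts, was at 4.76 ± 1.02 against 2.42 ± 0.574 TPM without overlap (adjusted p = 0.079). Of 21 tested complement genes 12 (57.1%, against 3.59% of all genes) were lower at unadjusted p, with a median of -0.26. Among the 12 were the receptor genes C3ar1 (19.6 ± 3.35 against 13.3 ± 2.32 TPM, adjusted p = 0.217) and Itgb2 (28.7 ± 6.34 against 20 ± 3.11 TPM, adjusted p = 0.299) and C3 itself (9.57 ± 1.91 against 6.26 ± 1.09 TPM, adjusted p = 0.224).

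Among 26 tested genes of apolipoproteins and lipid handling, 11 (42.3%, against 3.59% of all genes) were lower and 1 was higher at unadjusted p. Apoc2 was past adjusted p, and the median was -0.16. Apoe, the main lipid carrier of the brain, was at 5465 ± 607 TPM with PLX3397 alone and 4343 ± 486 TPM with the combination, without overlap (adjusted p = 0.321). Lipa, the lysosomal acid lipase that releases cholesterol, was at 49.8, 63.6, 50.8, 56.8 and 55.8 TPM with PLX3397 and at 44.5, 43.8, 39.6, 43.9 and 43.5 TPM with the combination. Abca1, which exports cholesterol to apolipoproteins, was at 52.1, 63.8, 56.4, 57.9 and 62.6 TPM with PLX3397 and at 50.8, 48.4, 42.3, 45.9 and 43.4 TPM with the combination. Both were lower in all combination mice by small amounts, with ratios of means of 1.29 and 1.27 and adjusted p of 0.0699 and 0.089. Of 17 tested genes of heme and iron handling 4 (23.5%, against 3.59% of all genes) were lower at unadjusted p, or 7 without PLX3397 mouse J01. Of 9 hemoglobin and red cell genes none was.

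**Figure D2:**
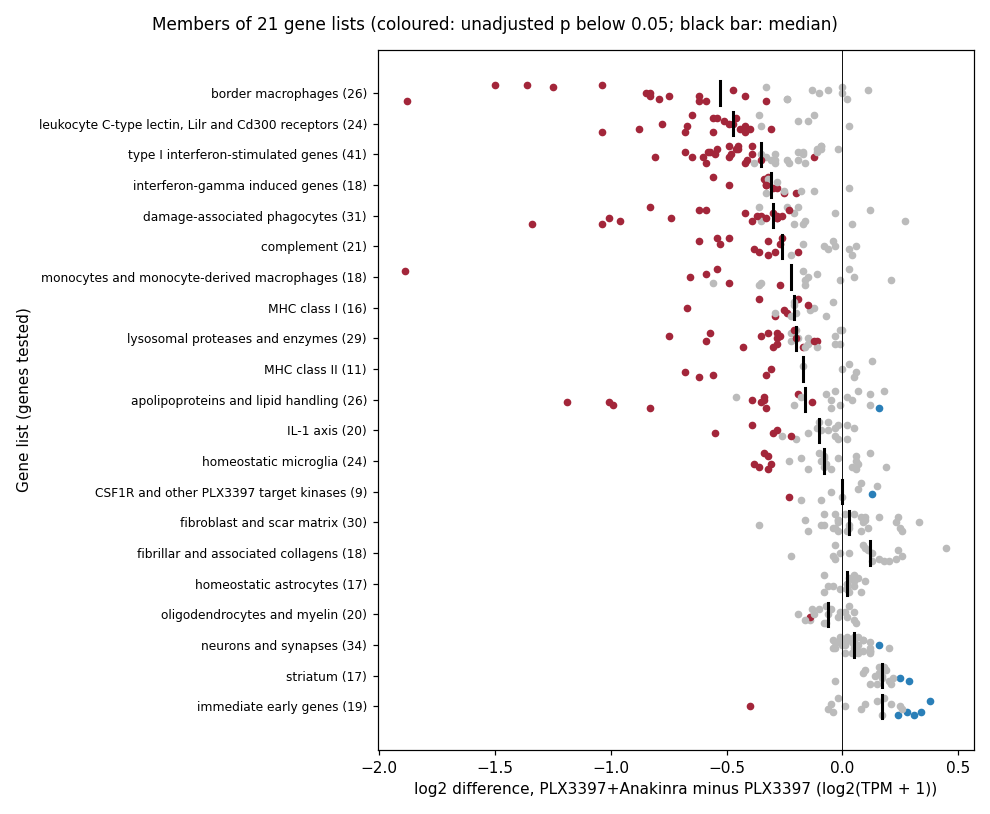
Log2 difference of PLX3397+Anakinra minus PLX3397 for every tested member of 21 gene lists, with the number tested in brackets. Red points are lower and blue points higher at unadjusted p below 0.05, and black bars are medians, from -0.53 in border macrophages to 0.17 in striatum and immediate early genes.

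Antigen presentation genes of both MHC classes were in part lower. Of 11 tested MHC class II genes 5 (45.5%, against 3.59% of all genes) were lower at unadjusted p and 6 had a negative log2 difference, with a median of -0.17. H2-Eb1, a class II beta chain, was at 6.68, 9.18, 5.5, 6.88 and 7.46 TPM with PLX3397 and at 3.63, 4.76, 2.88, 4.85 and 4.29 TPM with the combination, without overlap (ratio of means 1.75, adjusted p = 0.0937). Cd74, the invariant chain, was at 14.9 ± 1.68 against 9.86 ± 1.85 TPM (adjusted p = 0.105), and the summed class II level was 88.6 to 124 TPM with PLX3397, 68.9 to 92.8 TPM with the combination and 162 to 315 TPM with vehicle. Of 16 tested MHC class I genes all had a negative log2 difference, with a median of -0.21, and 7 (43.8%, against 3.59% of all genes) were lower at unadjusted p. That count was 12 without PLX3397 mouse J01, 2 without J02, 4 without J19, 3 without J20, 4 without combination mouse J09 and 2 without J17.

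Interferon-stimulated genes had lower means in PLX3397+Anakinra than in PLX3397, each by a modest amount. Of 41 tested type I interferon-stimulated genes, 21 (51.2%, against 3.59% of all genes) were lower at unadjusted p, all 41 had a negative log2 difference, and none passed adjusted p. The median was -0.35, and the count was 32 without PLX3397 mouse J01. Rsad2, the antiviral enzyme viperin, was at 7.57, 7.39, 6.18, 12.7 and 10.6 TPM with PLX3397 and at 4.83, 5.99, 3.67, 5.86 and 5.68 TPM with the combination. Ifi44, an interferon-induced protein of myeloid and other cells, was at 3.74, 4.54, 3.59, 6.37 and 4.62 TPM with PLX3397 and at 2.59, 3.48, 3.26, 2.24 and 2.17 TPM with the combination. Neither overlapped, with ratios of means of 1.71 (adjusted p = 0.271) and 1.66 (adjusted p = 0.248), and PLX3397 mouse J19 was the highest in both. Slfn2 of the Schlafen family was at 12.4 ± 3.62 against 7.17 ± 1.22 TPM without overlap (adjusted p = 0.234), Isg15, the ubiquitin-like modifier, at 36.9 ± 10.5 against 24.4 ± 6.99 TPM (adjusted p = 0.614), and Irf7, the regulator of interferon production, at 18.5 ± 3.89 against 13.8 ± 2.52 TPM (adjusted p = 0.634).

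Of 18 tested genes induced by interferon-gamma, 11 (61.1%, against 3.59% of all genes) were lower at unadjusted p, with a median of -0.31. This count was carried by several mice: it was 4 without PLX3397 mouse J19, 5 without J20 or combination mouse J09, and 7 without PLX3397 mouse J02 or combination mouse J17. Tgtp2, an interferon-induced GTPase, was at 4.38 ± 1.02 against 2.62 ± 0.411 TPM without overlap (adjusted p = 0.212). Of 23 tested chemokine genes 6 (26.1%, against 3.59% of all genes) were lower, or 11 without PLX3397 mouse J01, and 1 was higher at unadjusted p. Beside Pf4, these included the monocyte attractants Ccl7 (3.85 ± 0.759 against 1.82 ± 0.971 TPM, adjusted p = 0.269) and Ccl8 (1.40 ± 0.685 against 0.410 ± 0.285 TPM, adjusted p = 0.308) and the lymphocyte attractant Cxcl10 (28.9 ± 7.90 against 19.1 ± 2.87 TPM, adjusted p = 0.499).

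Striatal and immediate early genes had median log2 differences above that of all genes (0.0066), and neuronal genes had a smaller one. Of 34 tested genes of neurons and synapses 0 were lower and 1 was higher at unadjusted p, with a median log2 difference of 0.05. Of 17 striatal genes 2 were higher at unadjusted p (2.30% of all genes were) and only 1 had a negative log2 difference, with a median of 0.17. The summed level was 2748, 1853, 2618, 2657 and 2622 TPM with PLX3397 and 2586, 2387, 3052, 2800 and 2979 TPM with the combination. PLX3397 mouse J02, with the highest summed phagocyte level, had the lowest striatal level, and the part of tissue composition in the results was not tested. Of 19 immediate early genes 5 were higher (2.30% of all genes were) and 1 was lower at unadjusted p, with a median of 0.17. Egr1, a transcription factor induced by neuronal activity, was at 145, 125, 128, 94.7 and 99.4 TPM with PLX3397 and at 121, 143, 160, 163 and 182 TPM with the combination, overlapping but with a ratio of 0.77 (adjusted p = 0.516). Fos was at 16 ± 2.65 and 19.8 ± 1.26 TPM (adjusted p = 0.506), Egr4 at 19.1 ± 3.04 and 24.4 ± 2.97 TPM (adjusted p = 0.481) and Egr3 at 48.4 ± 5.14 and 57.1 ± 5.52 TPM (adjusted p = 0.535).

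The genes with the largest increases among those without overlap were Gm38927 (1.29 ± 0.331 against 2.71 ± 0.692 TPM, adjusted p = 0.132), Gm32404, Gm41396, Ntn5, Ppp1r3g, Hist1h2be, Dok6, LOC108167777, Fosb and Fmnl1, none at adjusted p. Ntn5, a netrin, was at 2.58, 2.55, 1.98, 2.02 and 2.03 TPM with PLX3397 and at 2.93, 3.79, 3.9, 3.22 and 3.18 TPM with the combination. Its sham mean was 5.81 TPM. Ppp1r3g, a regulator of glycogen synthesis, was at 6.93 ± 0.389 against 9.34 ± 1.47 TPM (adjusted p = 0.256). Dok6, an adaptor of the Ret receptor, was at 23.4 ± 1.84 against 30.3 ± 5.65 TPM (adjusted p = 0.413) and owed its mean in part to combination mouse J03 at 39.9 TPM.

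Of 23 tested genes of reactive astrocytes 5 (21.7%, against 3.59% of all genes) were lower at unadjusted p, or 11 without PLX3397 mouse J01, with a median of -0.08. They included Serpina3n, a secreted protease inhibitor, at 488 ± 68.2 against 378 ± 46.2 TPM (adjusted p = 0.358), beside Lcn2, C3 and Cxcl10. Homeostatic astrocytes (17 genes), fibrillar and associated collagens (18 genes), fibroblast and scar matrix (30 genes) and the cell cycle (28 genes) had no gene lower or higher at unadjusted p, although without PLX3397 mouse J01, 1, 0, 4 and 5 of them were lower. The fibroblast count was also above 0 without PLX3397 mouse J12 or J19 or combination mouse J03 or J04, the cell cycle count without J03 or J04, and the collagen count without J10. Their medians were 0.02, 0.12, 0.03 and -0.10. Genes below an unadjusted p of 0.05, lower or higher, were counted in further lists. These were oligodendrocytes (1 of 20), their progenitors (2 of 13), endothelium (3 of 22), pericytes (1 of 14) and meninges (1 of 17, Spp1). The others were choroid plexus (1 of 12), thalamus (1 of 14), hippocampus (2 of 15) and injured neurons (3 of 18, with Gal first). Against 3.59% of all genes, the share that was lower was 5% for oligodendrocytes, 15.4% for progenitors and 13.6% for endothelium. It was 7.14% for pericytes, 5.88% for meninges, 6.67% for hippocampus and 16.7% for injured neurons, and 0 for choroid plexus and thalamus. None of these genes passed adjusted p, and with each mouse left out the lower genes numbered 0 to 5 for oligodendrocytes, 1 to 2 for their progenitors and for pericytes, 2 to 5 for endothelium, 0 to 2 for hippocampus and 3 to 5 for injured neurons. Of 4 tested Y-linked genes none was below an unadjusted p of 0.05, and the 13 protein-coding genes of the mitochondrial genome were listed at 0 in all libraries.

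Adding Anakinra could be compared with and without PLX3397 because the 2 contrasts share no library. The vehicle mice have numbers that end in B, which those of the other groups do not, and what the letter stands for was not given in the sources used here. If these mice were handled apart from the others, that difference cannot be told apart from vehicle treatment in any comparison with vehicle, the interactions included. The test of the difference between the contrasts (interaction) in limma found 0 of 17267 genes at adjusted p (0%, smallest adjusted p 0.121), and 709 negative (4.11%) and 649 positive (3.76%) interactions at unadjusted p. Without PLX3397 mouse J01, 1 gene passed, Cxcl10. Without PLX3397, in the fit of 20 TBI libraries, 1194 genes (6.91%) were lower and 897 (5.19%) were higher with Anakinra than with vehicle at unadjusted p. At adjusted p, 4 genes were lower and 2 were higher.

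The 9 called genes also had lower means with Anakinra alone than with vehicle. Pf4 had means of 63.1 ± 20.1 TPM with vehicle and 47.3 ± 8.31 TPM with Anakinra, a log2 difference of -0.36 (adjusted p = 0.512) against -1.88 on PLX3397, and the interaction was -1.52 (adjusted p = 0.152). F13a1 differed by -0.63 without and -1.50 with PLX3397 (interaction -0.88, adjusted p = 0.47), Lyz2 by -0.61 and -1.34 (interaction -0.73, adjusted p = 0.552), F7 by -0.62 and -1.21 (interaction adjusted p = 0.62) and Mmp8 by -0.65 and -1.02 (interaction adjusted p = 0.617). For Wfdc17 the log2 differences were -0.96 and -1.36 (interaction adjusted p = 0.677), for Arg1 -1.25 and -1.89 (adjusted p = 0.702), for Apoc2 -0.83 and -1.19 (adjusted p = 0.708) and for Gpnmb -0.61 and -0.96 (adjusted p = 0.759). In sham mice all of these genes had means below 5 TPM except Lyz2, at 17.1 TPM.

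**Figure D3:**
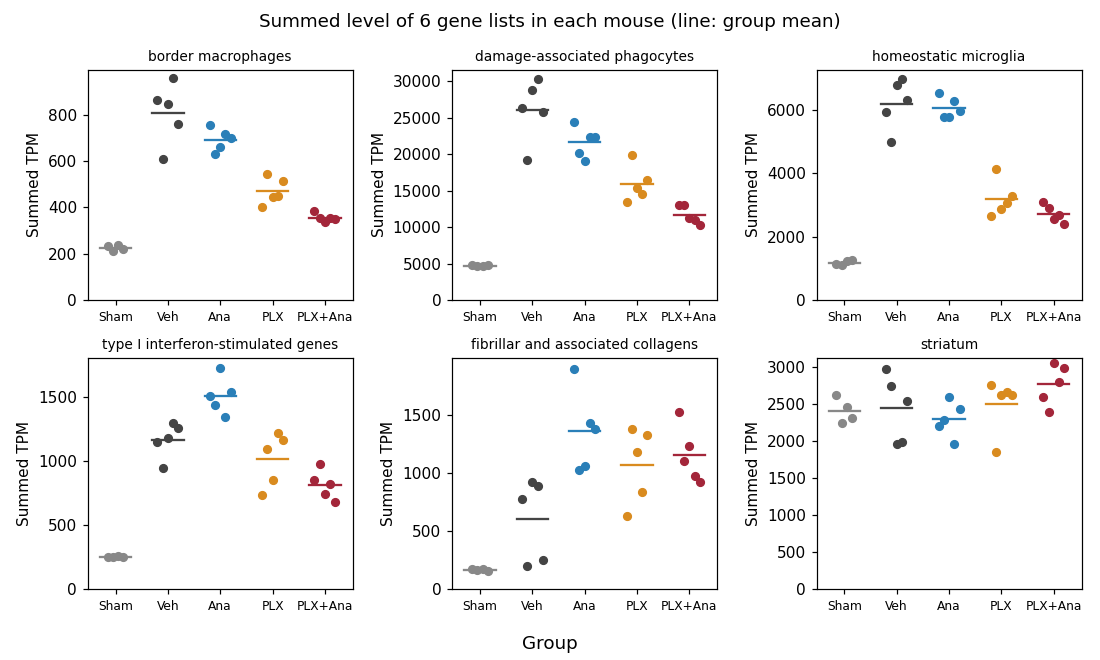
Summed TPM of 6 gene lists in each mouse (points) and the group means (lines) for sham, vehicle, Anakinra, PLX3397 and PLX3397+Anakinra, on axes from 0. Border macrophage genes sum to 336 to 383 TPM with the combination, below all mice on PLX3397 (401 to 543 TPM), while the collagen sums of both groups overlap.

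The interferon-stimulated genes stood on opposite sides in the contrasts. With Anakinra alone 23 of 41 type I interferon-stimulated genes were higher than with vehicle at unadjusted p (5.19% of all genes were). Their median log2 difference was 0.36, whereas on PLX3397 the median was -0.35. The interaction was negative for all 41 genes and below an unadjusted p of 0.05 for 38 of them, against 4.11% of all genes, and for 32 to 40 with each of the 20 TBI mice left out. The summed level was 945 to 1294 TPM with vehicle, 1339 to 1724 TPM with Anakinra, 733 to 1214 TPM with PLX3397 and 681 to 972 TPM with the combination. Anakinra mice were thus above all others, and the PLX3397 and combination ranges overlapped.

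Single genes had the same pattern. Irf7 had means of 23.6 TPM with vehicle and 35.6 TPM with Anakinra, against 18.5 TPM with PLX3397 alone and 13.8 TPM with the combination (interaction -0.97, adjusted p = 0.176). Cxcl10 had means of 28.1, 43.4, 28.9 and 19.1 TPM in the same order (interaction -1.16, adjusted p = 0.121), and without PLX3397 mouse J01 its interaction was -1.32 with an adjusted p of 0.00659. Ifi44 was at 4.76, 6.88, 4.57 and 2.75 TPM (interaction -1.01, adjusted p = 0.121), and Tgtp2 at 4.24, 6.36, 4.38 and 2.62 TPM (interaction -1.04, adjusted p = 0.121). Of the genes induced by interferon-gamma 15 of 18 and of MHC class I genes 11 of 16 had a negative interaction at unadjusted p (4.11% of all genes did). None had a positive one. With each TBI mouse left out these counts were 12 to 16 and 10 to 15.

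Collagen genes had their larger difference without PLX3397. Of 18 collagen genes 14 were higher with Anakinra than with vehicle at unadjusted p (5.19% of all genes were), with a median log2 difference of 0.97. None was higher with the combination than with PLX3397 (median 0.12). The interaction was below an unadjusted p of 0.05 and negative for 11 of the 18 collagen genes, against 4.11% of all genes. This rested in part on vehicle mice J17B and J20B, whose summed collagen levels were 198 and 253 TPM against 773 to 921 TPM in the other 3, and the count was 7 without J17B and 6 without J20B. Of 30 genes of fibroblast and scar matrix, 22 had a negative interaction at unadjusted p (4.11% of all genes did), 13 without J17B or J20B and 14 without PLX3397 mouse J02. Col1a1, the main chain of type I collagen, was at 132, 348, 298, 171 and 302 TPM with PLX3397 and at 343, 247, 341, 218 and 207 TPM with the combination (adjusted p = 0.96), with means of 122 TPM for vehicle and 334 TPM for Anakinra.

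**Figure D4:**
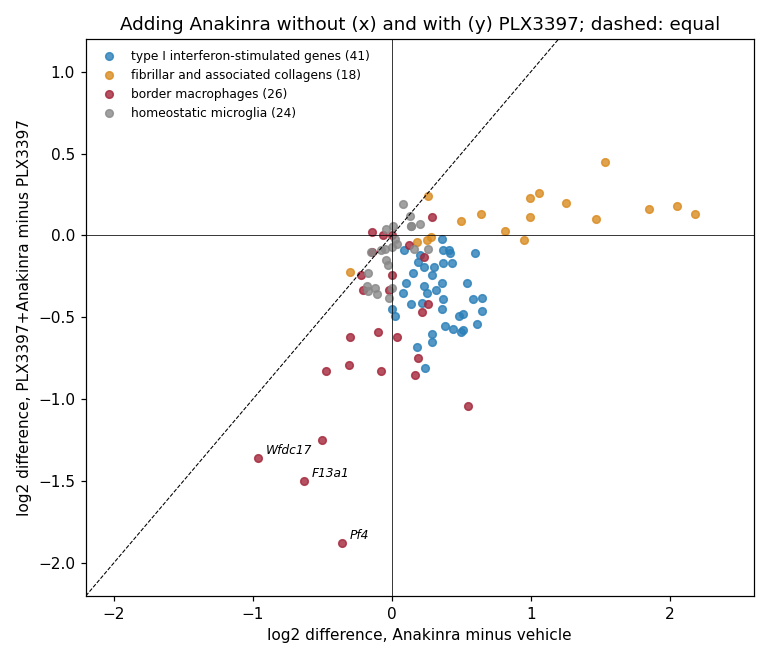
Log2 difference of Anakinra minus vehicle (x axis) against that of PLX3397+Anakinra minus PLX3397 (y axis) for the tested members of 4 gene lists, with the line of equal differences dashed. Type I interferon-stimulated genes lie at or right of 0 and below 0, most collagens right of the line near 0 on the y axis, and Pf4, F13a1 and Wfdc17 lowest.

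Border macrophage genes had a median log2 difference of -0.07 with Anakinra alone and of -0.53 on PLX3397. Of 26, 12 had a negative interaction at unadjusted p (4.11% of all genes did), and 10 to 15 with each TBI mouse left out. Clec4n was at 9.44 TPM with vehicle, 12.8 TPM with Anakinra, 7.22 TPM with PLX3397 alone and 2.99 TPM with the combination (interaction -1.59, adjusted p = 0.442). Homeostatic microglia genes had medians of -0.01 and -0.08, and 1 of 24 had an interaction below an unadjusted p of 0.05. Lcn2 differed by about the same amount in both settings, from 62.6 to 25.3 TPM without and from 54.9 to 23.4 TPM with PLX3397 (interaction -0.04, adjusted p = 0.99).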

How the data were processed

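RNA from lesional and perilesional tissue, enriched for polyA, was sequenced with 1 library per mouse. The authors mapped the reads to mm10 (GRCm38) in CLC Genomics Workbench and deposited TPM values per gene, which correct for gene length and add up to 1000000 in each library. All 24 columns were matched to samples by their labels. The tables hold no counts, so depth is unknown and the precision rests on the spread between 5 mice per group. Other deposited tables hold the same values with annotation and the results of the authors' tests and were not used.

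Genes averaging 0.5 TPM or more were fitted as log2(TPM + 1) in limma 3.58.1 (R 4.3.3) with a variance trend, in the 10 libraries of PLX3397 and PLX3397+Anakinra. The interaction and the contrast of Anakinra with vehicle were fitted in 20 TBI libraries. Counts of that contrast and of the main one therefore come from fits of unlike size. P-values are two-sided, adjusted by Benjamini-Hochberg over all genes tested, and the fit was tested on simulated data. Named genes were those at adjusted p, the 10 largest differences without overlap in each direction at 1 TPM or more, the DEGs, all tested IL-1 axis and kinase genes, and up to 4 genes of the smallest p in each other list, beside members named by role. Avp, Pmch and the leave-one-out counts of interaction lists were added later. Oxt, Hcrt, Trh, Agrp, Pomc and Sim1 were looked up together with Avp and Pmch, and their values are not given. The comparison, gene lists and motifs were chosen with earlier results of these data known, and some genes stand in several lists.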

Additional observations from a re-analysis of the deposited data

Results flagged for a closer look

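In each group of 5 mice, the highest or lowest value was examined against Dixon's critical value of 0.71 for its gap to the nearest mouse relative to the group's range, over 65 genes and 130 groups. Chance flags about 1 in 20 groups, and 11 were flagged. The flag of Avp with PLX3397 is among the 11, but Avp was chosen after its values were seen. It therefore cannot be set against chance.

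With PLX3397+Anakinra, mouse J09 stood apart in 4 genes: it was highest for Lcn2 (54.8 TPM, next 17.4 TPM) and Apoc2 (9.8 TPM, next 5.67 TPM) and lowest for Tgtp2 (1.9 TPM, next 2.68 TPM) and Lipa (39.6 TPM, next 43.5 TPM). Mouse J03 was highest for Gm13308 (6.23 TPM, next 1.8 TPM) and Dok6 (39.9 TPM, next 29.7 TPM), and mouse J10 was highest for Gal (7.84 TPM, next 5.66 TPM).

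With PLX3397, mouse J02 was highest for C1qa (696 TPM, next 502 TPM) and Tmem119 (32.6 TPM, next 24.4 TPM) and lowest for Drd2 (41.6 TPM, next 61.5 TPM). Mouse J01 was highest for Avp (41.7 TPM, next 6.67 TPM), a gene looked up because of this mouse. No difference between the effect of Anakinra with and without PLX3397 passed adjusted p.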

How the results depend on the processing

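The 9 calls at adjusted p became 0 when every gene above 0 TPM was tested (28322 genes), 26 with all 24 libraries in the fit (25 lower, 1 higher) and 31 with array quality weights, and 7 to 50 with each mouse left out (50 without PLX3397 mouse J01, 18 without PLX3397+Anakinra mouse J03). They remained 9 with a pseudocount of 0.1, were 9 at a mean of 5 TPM or more (7 shared) and 7 after median-ratio rescaling. The cause of these shifts was not tested. Genes lower at unadjusted p numbered 395 at a mean of 5 TPM or more, and 477 to 890 with each mouse left out. Genes higher numbered 651 when every gene above 0 TPM was tested, and 295 to 832 with each mouse left out (832 without PLX3397 mouse J01, 660 without PLX3397+Anakinra mouse J04). DEGs numbered 14 to 22 with each mouse left out. The interaction had 0 genes at adjusted p in the other fits, and 0 to 1 with each mouse left out, the 1 being without PLX3397 mouse J01. Wfdc17, F13a1, Pf4, Lyz2 and Arg1 lost the call in 1 of 16 alternatives, that of testing every gene above 0 TPM, as did F7 and Mmp8 in 1 of 15, whereas Gpnmb kept it in 7 and Apoc2 in 6 of 16. Among the 715 genes followed through the alternatives, no direction of a gene below an unadjusted p of 0.05 turned. No paired analysis was possible because the groups share no mouse or replicate number. Depth is unknown, and the number of mice limits the precision.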
